A study of Mus musculus with 6 samples.

Results

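The genes described here make up mitochondrial fatty acid oxidation and ketogenesis in the mouse liver. A list of 30 genes was matched by symbol to the 54532 genes of the deposited RNA-Seq table, all 30 were found, and 29 had enough counts to be tested between livers with deleted *Spns1* and control livers. The carnitine shuttle, formed by *Cpt1a*, *Slc25a20* and *Cpt2*, carries long-chain fatty acids into the mitochondrial matrix. There, an acyl-CoA dehydrogenase, a hydratase, a hydroxyacyl-CoA dehydrogenase and a thiolase shorten the chain in repeated rounds, and electrons leave through the electron transfer flavoprotein. In the fasting or suckling liver, acetyl-CoA from these rounds is turned into ketone bodies, which hepatocytes export for other tissues because they hardly express the ketone-using enzyme encoded by *Oxct1*.

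Livers of 3 g*Spns1*-cKO mice and 3 control mice on a C57BL/6 background were sequenced, 1 library per mouse. The g*Spns1*-cKO animals carried *Spns1* alleles with loxP sites around exon 3 and the Rosa26Cre-ERT2 transgene, a tamoxifen-dependent recombinase active in the whole body, and per the study's methods they received 50 mg/kg of tamoxifen intraperitoneally on postnatal days 11, 13 and 15. The methods use *Spns1* fl/fl littermates without Cre as controls, while the sample labels call the controls wild type and the other group SPNS1 KO. Age and sex of the sequenced animals, and whether the controls received tamoxifen, are not given in the sources used here, so that any effect of tamoxifen or of Cre cannot be told apart from that of the deletion.

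The libraries held 30350002 to 35295611 counts. Levels are given below as CPM, counts brought to a common library size with TMM factors (trimmed mean of M values, which centres the bulk of genes), and values are listed for replicates 1, 2 and 3 of a group in that order. *Spns1* itself stood at 35.9, 50.7 and 34.6 CPM in control livers and at 17.8, 30.6 and 17.8 CPM in g*Spns1*-cKO livers (log2 fold change of −0.87, SE 0.25, edgeR adjusted p = 0.03). These counts include reads from the exons that remain, and the call was lost without control replicate 2 (log2 fold change of −0.68) or without g*Spns1*-cKO replicate 1 (−0.74) or 3 (−0.74), and with library size alone (−0.43). It was also lost with upper-quartile scaling factors (−0.74) and when libraries were scaled to keep hepatocyte markers (−0.34) or mitochondrial genes (−0.55) level. The 14 hepatocyte markers summed to between 124168 and 136367 CPM in control livers, and the 10 muscle and adipocyte markers to between 0.747 and 16.4 CPM.

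With TMM scaling, most genes of the list were lower in g*Spns1*-cKO livers. Of the 29 tested genes, 19 were lower and 5 were higher past an adjusted p of 0.05 (quasi-likelihood test of edgeR, adjusted by Benjamini-Hochberg over all genes), and 5 did not pass. Over all 15449 genes tested, 41.8% were called, 20.5% lower and 21.3% higher, so the lower calls among the 29 genes came at 65.5% and the higher calls at 17.2%. The groups did not overlap for the same numbers of genes, 19 lower and 5 higher, against 26.9% and 27.1% of all genes tested (54.1% in either direction). The median log2 fold change of the 29 genes was −0.60, with quartiles at −0.91 and −0.19, while the median over all genes tested was 0.014. The single changes ran from −4.01 for *Acot1* to 1.98 for *Oxct1*.

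**Figure D1:**
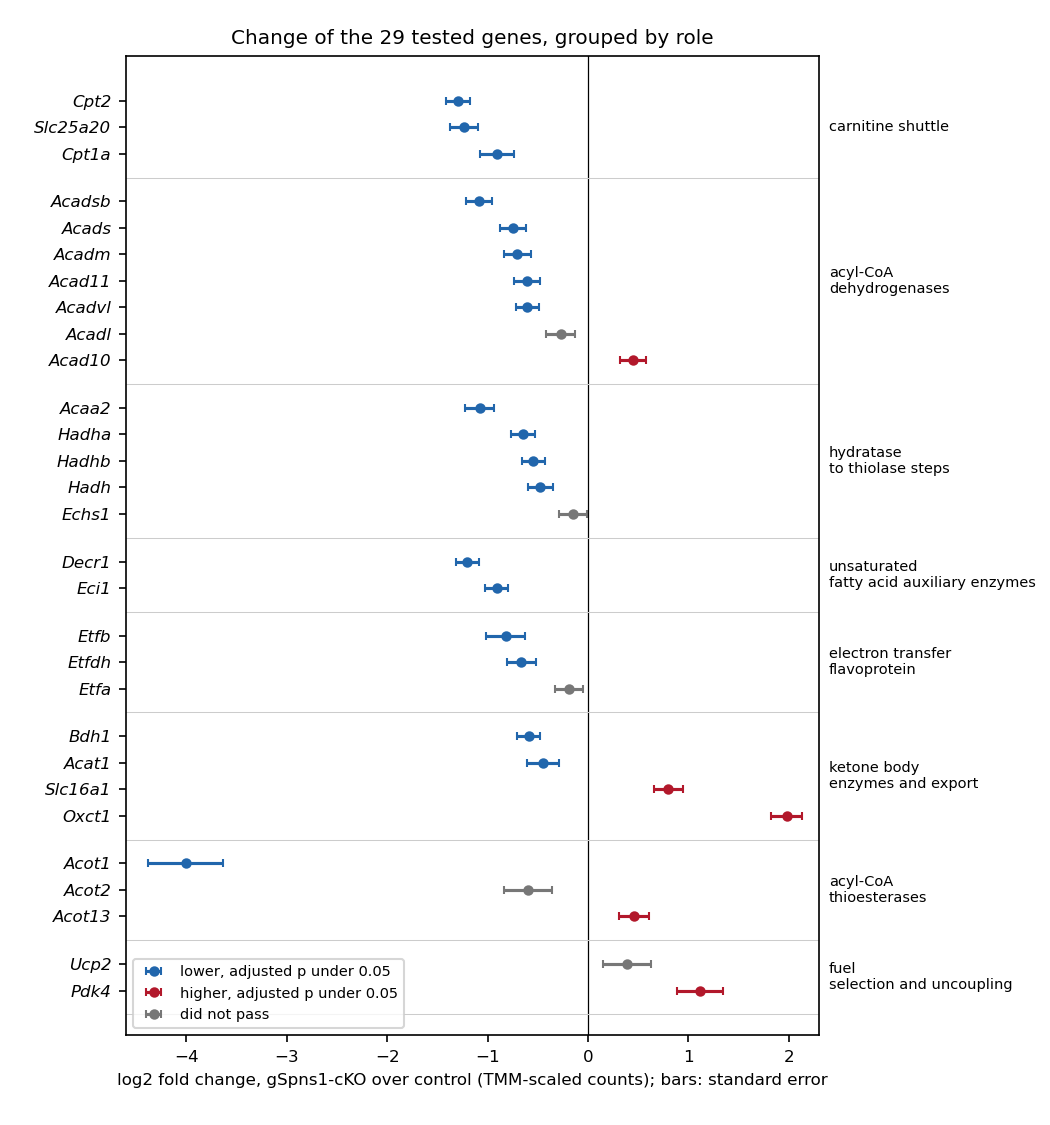
Log2 fold change of g*Spns1*-cKO over control livers for the 29 tested genes (x axis; points are edgeR estimates and bars standard errors), grouped by role. Points left of 0 dominate the carnitine shuttle, dehydrogenase and thiolase rows, *Acot1* stands apart at −4.01 and *Oxct1* at 1.98; *Acadl*, *Echs1* and *Etfa*, grey and left of 0 here, change side when libraries are scaled by library size alone.

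The number of lower calls depended on how the libraries were scaled. TMM factors were 0.834 to 0.873 in control libraries and 1.16 to 1.18 in g*Spns1*-cKO libraries, and scaling by library size alone moved the median of all genes from 0.014 to 0.46 and called 47.2% of genes higher and 6.28% lower. With that scaling 8 of the 29 genes were lower and 6 higher, with a median of −0.16. The share of each library's counts on the 30 genes, which also scales by library size alone, was 0.578%, 0.565% and 0.593% in control libraries. In g*Spns1*-cKO libraries it was 0.468%, 0.547% and 0.492%. The g*Spns1*-cKO share was 86.8% of the control share on average, the libraries of the groups did not overlap, and without the 10 most abundant genes of the table the figure was 85.8%. *Acaa2* alone held 36561, 41183 and 34605 of the 187975, 199346 and 179925 counts on the 30 genes in control libraries. In g*Spns1*-cKO libraries it held 20383, 26809 and 24878 of 145650, 178346 and 166066. The lower share, and its lack of overlap between groups, therefore lean on this gene. The median of the 29 genes minus that of all genes was −0.62 on the log2 scale with TMM, a difference that scaling by another factor leaves nearly as it is by construction.

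Markers of several cell types moved with the genotype. The 14 hepatocyte markers had a median log2 fold change of −0.56, close to that of the 29 genes, with 9 lower and none higher (−0.11 with library size alone, with 1 lower and 1 higher), and their sum was 75119 to 86764 CPM in g*Spns1*-cKO livers. All 14 macrophage markers were higher, their sum being 231 to 367 CPM in control livers and 938 to 1339 CPM in g*Spns1*-cKO livers, and no marker of either list was at 0 in all libraries. Higher too were 7 of 8 cholangiocyte markers, 8 of 10 stellate cell markers and 5 of 8 endothelial markers, against 21.3% of all genes. Of 9 lymphocyte and neutrophil markers 3 were higher, and of 5 erythroid markers 2 were higher and 1 lower. Both lists are short, and all genes had 21.3% higher and 20.5% lower, so these counts do not show a shift. The 1 muscle or adipocyte marker that was tested did not pass. In bulk tissue, fewer cells of a type and less RNA per cell cannot be told apart, and the part of these shifts in the results below was not tested. When libraries were scaled so that the hepatocyte markers stayed level, 7 of the 29 genes were still lower (*Cpt2*, *Slc25a20*, *Acadsb*, *Acaa2*, *Eci1*, *Decr1* and *Acot1*) and 7 were higher, *Echs1* and *Ucp2* among them, with 4.89% of all genes lower and 53.8% higher.

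**Figure D2:**
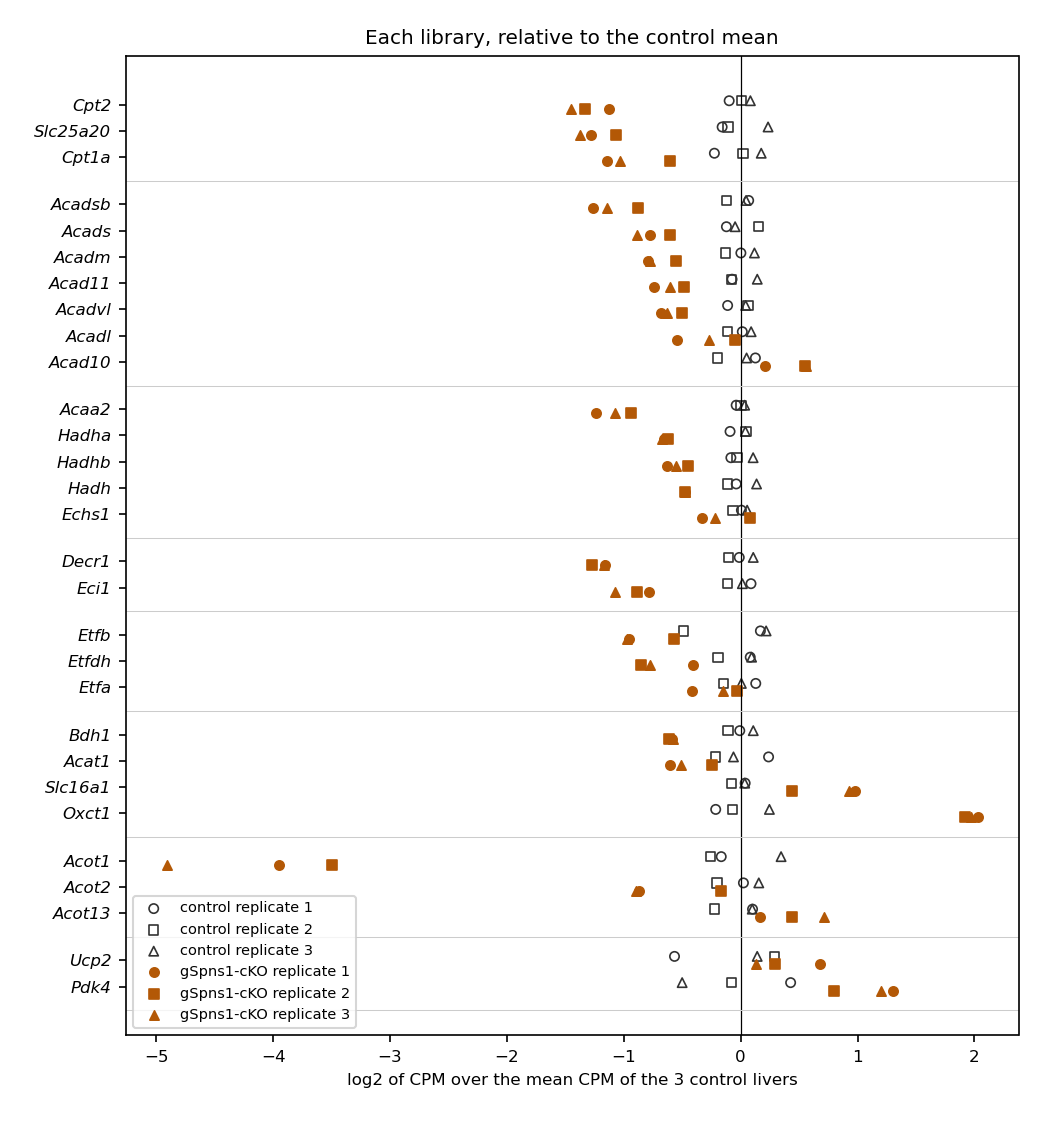
Level of each tested gene in each of the 6 libraries (x axis, log2 of CPM over the mean CPM of the 3 control livers), with controls as open and g*Spns1*-cKO livers as filled symbols and 1 symbol shape per replicate number. In 19 genes all filled symbols lie left of all open ones and in 5 genes right of them, whereas *Acadl*, *Echs1*, *Etfa*, *Acot2* and *Ucp2* overlap.

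Per kilobase of the deposited gene length, which allows a rough comparison between genes, *Acaa2* was the highest of the 30 genes. For some genes this length is well above that of the longest transcript, as for *Acadm* (3913 against 2047 bases) and *Hadha* (8730 against 4017). Such genes rank lower for that reason, so the places below are approximate. It stood at 881 ± 22.2 CPM per kilobase (SD, n = 3) in control livers and at 418 ± 43.6 in g*Spns1*-cKO livers. In control livers *Etfa* (181 ± 17.4 CPM per kilobase), *Eci1* (131 ± 9.05) and *Acadl* (122 ± 8.51) came next, and the SD ranges of *Eci1* and *Acadl* overlap. The order was similar in g*Spns1*-cKO livers, with moves of 5 or more places for 3 genes. *Acot13* went from the 11th to the 3rd place (75.1 ± 9.40 to 103 ± 19.4 CPM per kilobase), *Acot1* from the 23rd to the 29th place (11.5 ± 2.72 to 0.717 ± 0.322 CPM per kilobase) and *Slc16a1* from the 24th to the 19th place (10.7 ± 0.482 to 18.7 ± 3.64 CPM per kilobase). *Oxct1* and *Pdk4*, which were higher in g*Spns1*-cKO livers, stayed among the 5 lowest, at 4.43 ± 0.168 and 3.93 ± 0.686 CPM per kilobase. *Cpt1b*, the muscle form of the first shuttle enzyme, was the lowest at 0.0796 ± 0.0458 CPM per kilobase in control livers.

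**Figure D3:**
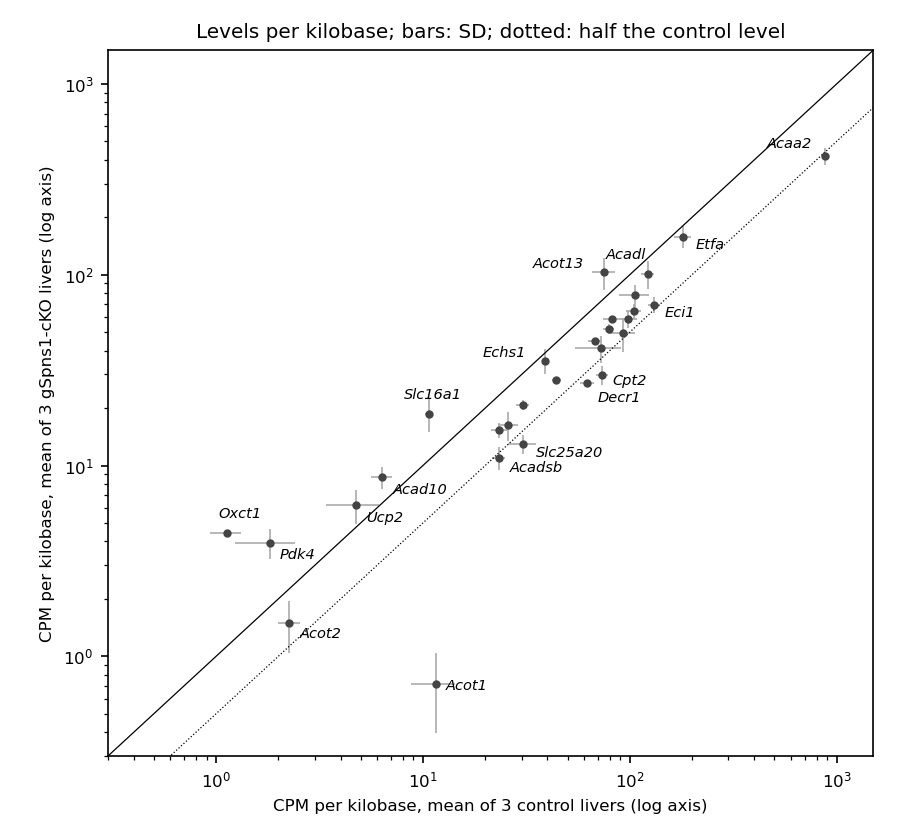
Mean CPM per kilobase of the tested genes in the 3 control livers (x axis) and the 3 g*Spns1*-cKO livers (y axis), both on log axes, with SDs as bars, equality as the solid line and a 2-fold drop as the dotted line. *Acaa2* is at 881 against 418, *Acot1* at 11.5 against 0.717 far below the dotted line, and *Oxct1* at 1.13 against 4.43 above the solid line.

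All 3 tested genes of the carnitine shuttle were lower. *Cpt1a* (chr19:3323301-3385732, GRCm38) encodes the liver form of carnitine palmitoyltransferase of the outer membrane, the step that malonyl-CoA inhibits. It stood at 341, 404 and 451 CPM in control livers and at 181, 263 and 195 CPM in g*Spns1*-cKO livers, with a log2 fold change of −0.91 (SE 0.17, edgeR adjusted p = 0.0021). The lowest control liver was above the highest g*Spns1*-cKO liver. *Slc25a20*, the carnitine-acylcarnitine exchanger of the inner membrane, stood at 132, 137 and 174 CPM in control livers and at 60.7, 70.7 and 56.9 CPM in g*Spns1*-cKO livers. *Cpt2* (chr4:107903981-107923610), which releases acyl-CoA in the matrix, fell from 165, 177 and 187 CPM to 80.6, 70.1 and 64.4 CPM. Their control means were well above the g*Spns1*-cKO means, which were 42.5% and 40.7% of them, with log2 fold changes of −1.23 (SE 0.14) for *Slc25a20* and −1.30 (SE 0.12) for *Cpt2* and no overlap between groups. *Slc25a20* and *Cpt2* stayed lower under every scaling, whereas *Cpt1a* kept its direction but did not pass when hepatocyte markers were held level (log2 fold change of −0.36, adjusted p = 0.0892). *Cpt1b* had 3 to 12 counts per library and was not tested, and 81.4% of its exon bases overlap another gene model on the same strand.

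The acyl-CoA dehydrogenases were lower for 5 of 7 genes, with 1 higher and 1 that did not pass. *Acadsb*, whose enzyme takes short branched chains from isoleucine breakdown, fell furthest, from 176, 154 and 173 CPM to 70.0, 91.0 and 76.1 CPM (log2 fold change of −1.08, SE 0.13). It was also the gene of this family that was lower under every scaling. *Acadm*, the medium-chain enzyme, stood at 411, 375 and 445 CPM in control livers and at 237, 279 and 239.7 CPM in g*Spns1*-cKO livers (log2 fold change of −0.70). *Acads* for short chains, *Acadvl* for very long chains and *Acad11* changed by −0.75, −0.60 and −0.61, with edgeR adjusted p = 0.0013, 0.0023 and 0.0034. These 4 genes did not pass with library size alone (−0.30 to −0.16), and for *Acadvl* 42.9% of exon bases lie opposite exons of *Dvl2*, so that reads of both genes could be mixed if counting ignored strand.

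*Acadl*, the long-chain enzyme, differed less. It stood at 247, 226 and 260.1 CPM in control livers and at 168, 237 and 203 CPM in g*Spns1*-cKO livers, and the ranges overlapped through g*Spns1*-cKO replicate 2. Its log2 fold change was −0.27 (SE 0.14, edgeR adjusted p = 0.154), and it turned to 0.17 with library size alone. The ratio of *Acadl* to *Acadm* counts within a library, which needs no scaling, was 0.601, 0.604 and 0.584 in control livers, against 0.709, 0.848 and 0.845 in g*Spns1*-cKO livers. All g*Spns1*-cKO ratios were above all control ratios, and the two-sided exact permutation test gave p = 0.1, the smallest value that 3 against 3 allow (0.3 after adjustment over 9 ratios). *Acads* to *Acadm* and *Acadvl* to *Acadm* overlapped between groups (exact p = 1 and 0.4).

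*Acad10*, a member of the family with a kinase-like domain, went the other way. It was at 42.0, 33.5 and 39.8 CPM in control livers and at 44.5, 56.4 and 56.7 CPM in g*Spns1*-cKO livers, with a log2 fold change of 0.45 (SE 0.13, edgeR adjusted p = 0.0185). The call was lost without control replicate 2 (0.35), g*Spns1*-cKO replicate 2 (0.40) or g*Spns1*-cKO replicate 3 (0.39). Of the 50-base windows along its longest transcript, 18.3% also occur in transcripts of other genes, mainly its neighbour *Acad12*, so that its count is uncertain to that extent.

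From the hydratase to the thiolase, 4 of 5 genes were lower. *Acaa2*, the matrix thiolase, had the largest level and the largest drop of these, with 1300.4, 1337 and 1367 CPM in control livers and 567, 699 and 633 CPM in g*Spns1*-cKO livers (log2 fold change of −1.08, SE 0.14). It alone of the 5 was lower under every scaling. *Hadh*, which acts on short and medium chains, stood at 397, 378 and 448 CPM in control livers and at 293, 293 and 294 CPM in g*Spns1*-cKO livers. Its log2 fold change was −0.48 (SE 0.13, edgeR adjusted p = 0.012), it did not pass without control replicate 3 (−0.41) or g*Spns1*-cKO replicate 3 (−0.48), and it was 0.073 with hepatocyte markers held level. *Echs1*, the short-chain hydratase, overlapped between groups, with 325, 309.5 and 337 CPM against 258, 342 and 279 CPM. Its log2 fold change of −0.15 did not pass (edgeR adjusted p = 0.427) and became 0.30 with library size alone, and with hepatocyte markers held level the gene passed in the opposite direction, as higher (0.40, edgeR adjusted p = 0.0368).

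*Hadha* and *Hadhb* encode the alpha and beta subunits of the trifunctional protein, which does the last 3 steps for long chains. They lie head to head on chromosome 5 and are transcribed away from each other. *Hadha* (chr5:30118304-30155162, minus strand) stood at 362, 398 and 397 CPM in control livers and at 246, 251 and 243 CPM in g*Spns1*-cKO livers. *Hadhb* (chr5:30155248-30184593, plus strand) stood at 189, 196 and 215 CPM in control livers and at 129, 146 and 136 CPM in g*Spns1*-cKO livers. Neither gene overlapped between groups, and their log2 fold changes were −0.65 (SE 0.12) and −0.54 (SE 0.11). The count ratio of *Hadha* to *Hadhb* was 1.92, 2.03 and 1.84 in control livers, against 1.90, 1.72 and 1.78 in g*Spns1*-cKO livers, which overlap (exact permutation test, two-sided p = 0.2). With library size alone neither passed (−0.20 and −0.098), and with hepatocyte markers held level *Hadhb* was at 0.0046. The 85 bases that separate the gene models of this pair are shown because the genes diverge from here, read 5′ to 3′ on the plus strand from the promoter windows of RefSeq (GRCm38.p6), with both GGGCGG motifs (searched on both strands) in capitals.
*Hadha*-*Hadhb* interval, chr5:30155163-30155247: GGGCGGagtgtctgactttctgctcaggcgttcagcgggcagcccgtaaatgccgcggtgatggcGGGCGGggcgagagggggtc
The interval had a GC content of 69.4% and no TATAAA on either strand. The RefSeq starts of *Hadha* and *Hadhb* have 272 bases between them, and both lie outside the printed interval, within the gene models.

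Both auxiliary enzymes for unsaturated fatty acids were lower. *Decr1*, the dienoyl-CoA reductase, fell from 239.7, 225 and 260.4 CPM to 108, 99.9 and 107 CPM, a log2 fold change of −1.20 (SE 0.12, edgeR adjusted p = 4.7e-05). *Eci1*, the enoyl-CoA isomerase, stood at 152, 132 and 144 CPM in control livers and at 83.0, 77.1 and 67.9 CPM in g*Spns1*-cKO livers (log2 fold change of −0.91, SE 0.12). Neither gene overlapped between groups, and both passed under every scaling.

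Of the 2 subunit genes of the electron transfer flavoprotein, *Etfb* was called lower with TMM and *Etfa* was not. *Etfb*, the beta subunit, stood at 95, 60.2 and 98.3 CPM in control livers and at 43.7, 56.8 and 43.2 CPM in g*Spns1*-cKO livers (log2 fold change of −0.82, SE 0.20, edgeR adjusted p = 0.0098). Control replicate 2 lay just above the highest g*Spns1*-cKO liver. *Etfa*, the alpha subunit, overlapped between groups, with 363, 299 and 333 CPM against 249, 324 and 299 CPM, and its log2 fold change of −0.19 (edgeR adjusted p = 0.309) turned to 0.25 with library size alone. The count ratio of *Etfa* to *Etfb* was 3.82, 4.97 and 3.39 in control livers, against 5.69, 5.70 and 6.93 in g*Spns1*-cKO livers. Again the groups did not overlap, with an exact permutation p = 0.1 (0.3 adjusted over the 9 ratios). For *Etfb*, 53.0% of exon bases overlap another gene model on the same strand, so that its level depends on how shared reads were assigned. *Etfdh*, the oxidoreductase that passes the electrons to ubiquinone, stood at 205, 169.6 and 207 CPM in control livers and at 146, 108 and 113 CPM in g*Spns1*-cKO livers (log2 fold change of −0.67, SE 0.15). Both lower calls depended on the scaling, since *Etfb* and *Etfdh* did not pass with library size alone (−0.37 and −0.22), with hepatocyte markers held level (−0.27 and −0.12) or with genes of the mitochondrial outer membrane, import and dynamics held level (−0.50 and −0.34). The ratio of *Etfdh* to *Etfa* overlapped between groups (exact p = 0.3), as did the ratios of *Cpt2* to *Cpt1a* (exact p = 0.3) and of *Slc25a20* to *Cpt2* (exact p = 0.7).

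Of the 4 ketone body genes on the list, *Acat1* and *Bdh1* were lower with TMM, but neither passed with library size alone, with hepatocyte markers held level or with mitochondrial genes held level, and *Oxct1* and *Slc16a1* were higher. *Acat1*, the thiolase that joins 2 acetyl-CoA units, stood at 473, 345 and 384 CPM in control livers and at 263, 338 and 280.5 CPM in g*Spns1*-cKO livers. The gap between the groups was narrow, with a log2 fold change of −0.45 (SE 0.16, edgeR adjusted p = 0.0432). It did not pass without control replicate 1 (−0.32) or 3 (−0.49), nor without g*Spns1*-cKO replicate 1 (−0.38) or 3 (−0.42), and it was −0.0023 with library size alone, 0.11 with hepatocyte markers held level and −0.12 with mitochondrial genes held level. *Bdh1*, which reduces acetoacetate to beta-hydroxybutyrate, stood at 262, 244 and 284 CPM in control livers and at 176, 172 and 176 CPM in g*Spns1*-cKO livers (log2 fold change of −0.59, SE 0.12). Its change was −0.15, −0.042 and −0.27 under the same 3 scalings.

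*Oxct1* (chr15:4026383-4155344) encodes the transferase with which tissues outside the liver activate acetoacetate. It rose from 3.59, 3.96 and 4.94 CPM to 17.0, 15.8 and 16.4 CPM, 3.93-fold by the means, with a log2 fold change of 1.98 (SE 0.15, edgeR adjusted p = 1.5e-05). Control libraries held 101 to 125 counts of it and g*Spns1*-cKO libraries 605 to 643, with no library near the other group. This rise was seen beside the higher macrophage, cholangiocyte and stellate cell markers given above, and their part in it was not tested. *Slc16a1*, the monocarboxylate transporter MCT1 that carries ketone bodies, lactate and pyruvate, stood at 48.7, 45.0 and 48.6 CPM in control livers and at 93.7, 64.2 and 90.0 CPM in g*Spns1*-cKO livers. All g*Spns1*-cKO livers were higher (log2 fold change of 0.80, SE 0.14, edgeR adjusted p = 0.0016), with replicate 2 closest to the controls. Both genes were higher under every scaling.

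*Acot1* showed the largest change of the 29 tested genes. It encodes a cytosolic thioesterase that splits long-chain acyl-CoA, and it lies on chromosome 12 (chr12:84009490-84018371) beside *Acot2* (chr12:83987861-83993873), whose product is mitochondrial. *Acot1* stood at 40.3, 37.8 and 57.4 CPM in control livers and at 2.92, 4.01 and 1.501 CPM in g*Spns1*-cKO livers. That is 6.22% of the control mean, from 1132 to 1453 counts per control library to 59 to 154 counts, with a log2 fold change of −4.01 (SE 0.38, edgeR adjusted p = 0.00051). *Acot2* was rarer, at 5.05, 4.32 and 5.53 CPM in control livers and at 2.72, 4.43 and 2.67 CPM in g*Spns1*-cKO livers. Its groups overlapped through g*Spns1*-cKO replicate 2, and its log2 fold change of −0.60 (SE 0.24) had an edgeR adjusted p = 0.0695, which became 0.0156 without that replicate (−0.88). The paralogs are nearly identical in places, since 17.6% of the 50-base windows of the longest *Acot1* transcript also occur in *Acot2*. With the counts of both genes added before the test, the change was −3.04 and still passed. *Acot13*, a mitochondrial thioesterase of another family, was higher, with 59.9, 47.8 and 59.8 CPM in control livers and 62.5, 75.7 and 91.3 CPM in g*Spns1*-cKO livers (log2 fold change of 0.45, SE 0.15, edgeR adjusted p = 0.0338). The lowest g*Spns1*-cKO liver was only slightly above the highest control. Without any one of control replicates 1, 2 or 3 or g*Spns1*-cKO replicates 2 or 3 it did not pass, with log2 fold changes from 0.31 to 0.50.

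*Pdk4* (chr6:5483351-5496309), the kinase that switches off pyruvate dehydrogenase when fat is burned, rose against the direction of the oxidation genes. It stood at 8.57, 6.04 and 4.51 CPM in control livers and at 15.7, 11.1 and 14.6 CPM in g*Spns1*-cKO livers, 2.17-fold by the means (log2 fold change of 1.11, SE 0.23, edgeR adjusted p = 0.0041). All g*Spns1*-cKO livers lay above all controls, and the gene was higher under every scaling. *Ucp2*, an inner membrane carrier that macrophages express, was at 22.4, 40.5 and 36.6 CPM in control livers and at 53.1, 40.7 and 36.4 CPM in g*Spns1*-cKO livers. The groups overlapped, and its log2 fold change of 0.39 (SE 0.24) did not pass with TMM (edgeR adjusted p = 0.226) but did with library size alone (0.83, edgeR adjusted p = 0.0178) and with hepatocyte markers (0.92) or mitochondrial genes (0.71) held level.

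RefSeq promoter windows (GRCm38.p6, 250 bases before to 50 after the start of each gene) were given for 25 of the 30 genes, but not for *Cpt1b*, *Acaa2*, *Decr1*, *Acat1* and *Acot13*. GGGCGG on either strand occurred in 18 of the 25 (72.0%), against 38.2% of 27018 genes with a window. This background was not limited to the 15449 genes tested in these livers, so the 2 sets are unlike in expression. None of the 25 held TATAAA, which 15.7% of all genes did. The CACGTG motif, an E-box, was in 1 gene, *Slc16a1*, against 8.09% of all genes. The DR1 motif (a pair of AGGTCA sites in a row, 1 base apart), the form that PPARA-RXRA dimers bind, was searched with up to 2 mismatches and was found in 3 of 25 genes against 4.40% of all genes. These matches are shown because 2 of the 3 lie in genes that did not pass the test, *Echs1* and *Etfa*, and 1 in a gene that fell, *Slc25a20*. Each is written 5′ to 3′ along its gene with the matched letters in capitals.
*Echs1*, chr7:140116484-140116512, minus strand: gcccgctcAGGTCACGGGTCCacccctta
*Etfa*, chr9:55512300-55512328, minus strand: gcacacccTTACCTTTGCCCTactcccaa
*Slc25a20*, chr9:108662134-108662162, plus strand: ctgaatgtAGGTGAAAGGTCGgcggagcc
The matches in *Echs1* and *Slc25a20* read along the gene and that in *Etfa* against it. A match in these letters is not a measure of binding.

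Most of the further genes in or near the pathway that passed with TMM were lower as well, in numbers that depended on the scaling. This wider list also holds genes of related steps outside mitochondria, such as *Slc22a5*, *Crot* and *Fgf21*. Of its 49 tested genes, 26 were lower and 6 higher, with a median of −0.49, against 20.5% and 21.3% of all genes. With library size alone 14 were lower and 11 higher, with a median of −0.041, against 6.28% and 47.2% of all genes and their median of 0.46. With hepatocyte markers held level 10 were lower and 13 higher, with a median of 0.067. All genes then had 4.89% lower and 53.8% higher, with a median of 0.56. The carnitine transporter *Slc22a5* of the plasma membrane (log2 fold change of −1.79), the acyl-CoA synthetase *Acsf2* (−1.70), the carnitine acetyltransferase *Crat* (−1.59) and the isomerase *Eci2* (−1.43) fell the most. *Crat* and *Eci2* are also on the peroxisomal list below. On the higher side were *Pdp1* (2.54), the phosphatase that reactivates pyruvate dehydrogenase, its kinase *Pdk3* (1.76), the transporter *Slc16a7* (1.66) and the thioesterase *Acot9* (1.42). *Pdp1* and *Pdk3* were rare, at 0.561 ± 0.148 and 0.454 ± 0.348 CPM in control livers (SD, n = 3), and *Pdk3* did not pass without control replicate 2 (1.66) or g*Spns1*-cKO replicate 2 (1.61).

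Among 32 regulators of the pathway, 14 were lower and 2 higher with TMM, with a median of −0.29. With library size alone 3 were lower and 13 higher (median 0.15), against 6.28% and 47.2% of all genes, whose median was 0.46. *Ppara*, the nuclear receptor that drives these genes in fasting, stood at 65.6, 59.2 and 79.6 CPM in control livers and at 43.1, 52.2 and 47.8 CPM in g*Spns1*-cKO livers (log2 fold change of −0.51, SE 0.13, edgeR adjusted p = 0.01), and was at 0.037 with hepatocyte markers held level. Its partner *Rxra* (−0.87), the hepatic factor *Creb3l3* (−1.35), the coactivator *Ppargc1b* (−1.18) and the orphan receptor *Esrrg* (−1.99, from 3.26 ± 1.61 to 0.818 ± 0.686 CPM) were lower too. *Ppargc1a*, the other coactivator, rose from 9.92, 7.73 and 10.5 CPM to 15.1, 32.8 and 21.5 CPM (1.30, SE 0.28, edgeR adjusted p = 0.0082), with no overlap, and *Foxa2* was at 0.49. Single mice decided some of these calls. *Foxa2* did not pass without control replicate 1 (0.42) or 2 (0.42) or g*Spns1*-cKO replicate 2 (0.36) or 3 (0.51), *Esrrg* without control replicate 1 (−1.52), 2 (−2.19) or 3 (−2.19) or g*Spns1*-cKO replicate 3 (−1.79), and *Ppargc1b* without control replicate 1 (−0.90) or g*Spns1*-cKO replicate 2 (−1.07) or 3 (−0.95). The fasting hormone gene *Fgf21* fell from 2.63, 6.24 and 3.83 CPM to 1.58, 1.85 and 1.78 CPM (−1.28, SE 0.31). Of these calls, *Rxra* (−0.33) and *Fgf21* (−0.75) did not pass with hepatocyte markers held level. *Ppargc1b* did not pass with library size alone (−0.74), hepatocyte markers (−0.64) or mitochondrial genes held level (−0.85), nor did *Esrrg* (−1.54, −1.43 and −1.66), which also did not pass with a replicate block (−2.08).

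PPARA target genes outside the pathway had a lower median than the 29 genes, and it stayed below 0 under every scaling. Of 35 tested, 25 were lower and 3 higher, with a median of −1.20, against 20.5% and 21.3% of all genes. Scaling by library size alone gave 24 lower and 4 higher, with a median of −0.76, against 6.28% and 47.2% of all genes. The lipolysis inhibitor *G0s2* (−3.60), the lipid droplet gene *Cidec* (−3.34), *Angptl4* (−2.86), which inhibits lipoprotein lipase, and the fatty acid binding protein *Fabp1* (−2.60) fell the most. *Fabp1* went from 6527, 4229 and 4433 CPM to 1307, 481 and 715 CPM. The fatty acid receptor *Cd36* rose from 56.4, 34.5 and 75 CPM to 157, 153 and 165 CPM (1.52, SE 0.25), as did *Abcd2* (2.09; 2.00 and not past without control replicate 2), and *Aqp7* had 0 to 5 counts per control library and 73 to 122 per g*Spns1*-cKO library. Peroxisomal beta-oxidation, a separate route for very long chains, shares 8 of its genes with the target list. Without these, 19 of 27 tested target genes were lower and 2 higher with TMM, with a median of −1.18. Of the 20 peroxisomal genes, 15 were lower and 1 higher, with a median of −0.92, led by *Acaa1b* (−2.03), *Crat* (−1.59), *Slc27a2* (−1.49) and *Eci2* (−1.43). Scaled by library size alone, 11 of the 20 were lower and 1 higher (median −0.47).

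Mitochondrial genes outside fatty acid oxidation had medians closer to that of all genes. Of 18 genes of the citric acid cycle, 6 were lower and 2 higher with TMM, with a median of −0.24. With library size alone none was lower and 8 were higher (median 0.21), against 6.28% and 47.2% of all genes, whose median was 0.46. *Idh2* rose from 105, 100.6 and 111 CPM to 164, 269 and 243 CPM (1.09, SE 0.17) and *Idh3a* was at 0.60, while *Suclg1* (−0.54), *Suclg2* (−0.52), *Fh1* (−0.47) and *Sucla2* (−0.43) were lower with TMM but not with hepatocyte markers held level (0.013 to 0.13). *Suclg2* did not pass without control replicate 3 (−0.44), nor *Fh1* without g*Spns1*-cKO replicate 3 (−0.40). Of 24 genes of the outer membrane, protein import, quality control and dynamics, 12 were lower and 1 higher with TMM, with a median of −0.32. With library size alone none was lower and 8 were higher (median 0.13), against the same shares and median of all genes. The channel *Vdac1* (−0.26) and the fusion gene *Opa1* (−0.26) did not pass and were above 0 with library size alone (0.19 and 0.18), *Clpp* (−0.64), *Phb2* (−0.59), *Lonp1* (−0.52) and *Tufm* (−0.52) were lower with TMM but did not pass with library size alone (−0.19 to −0.076), and the fission gene *Dnm1l* was higher (0.50). *Vdac1* passed narrowly in DESeq2 (−0.27, adjusted p = 0.0492). When libraries were scaled to keep these 24 genes level, 11 of the 29 oxidation and ketogenesis genes were lower and 6 higher, with a median of −0.28, against 8.44% and 38.6% of all genes.

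**Figure D4:**
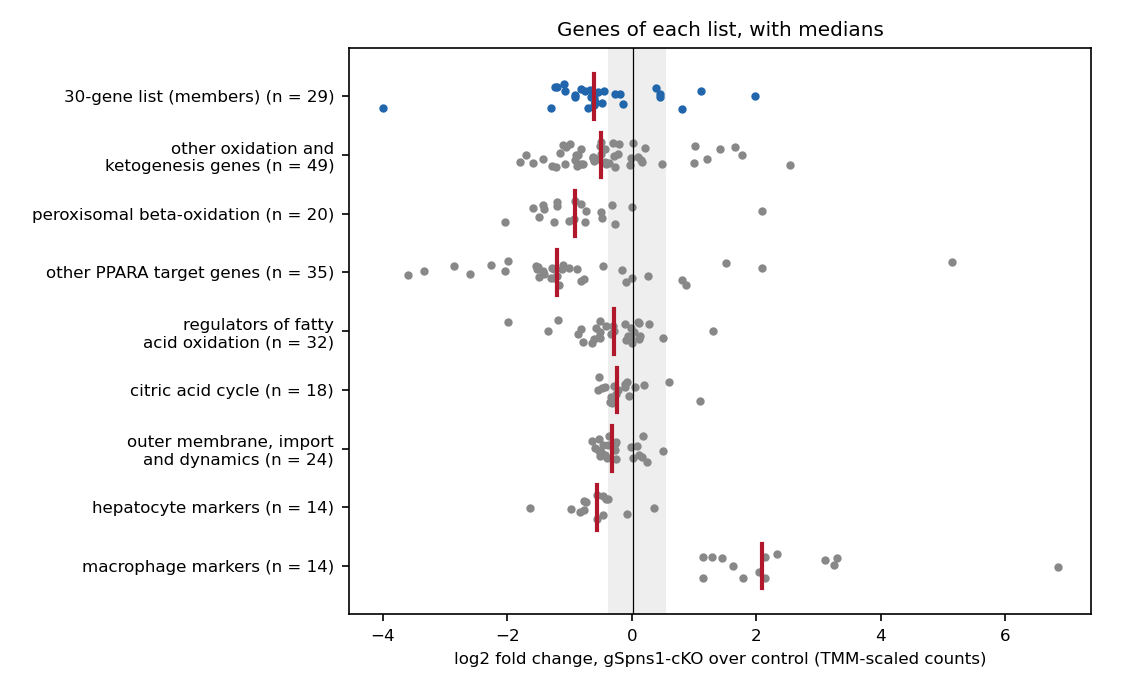
Log2 fold change of g*Spns1*-cKO over control livers (x axis, TMM-scaled) for each gene of 9 lists (1 point per tested gene, spread vertically for visibility), with red bars at list medians, the black line at the median and the grey band between the quartiles of all 15449 genes. The medians lie at −0.60 for the 29 tested genes, −0.49 for the other pathway genes, −0.92 for peroxisomal genes, −1.20 for PPARA targets and 2.09 for macrophage markers; with library size alone the median of all genes moves from 0.014 to 0.46, and the medians of the regulators, the citric acid cycle and the outer membrane list move above 0.

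**Figure D5:**
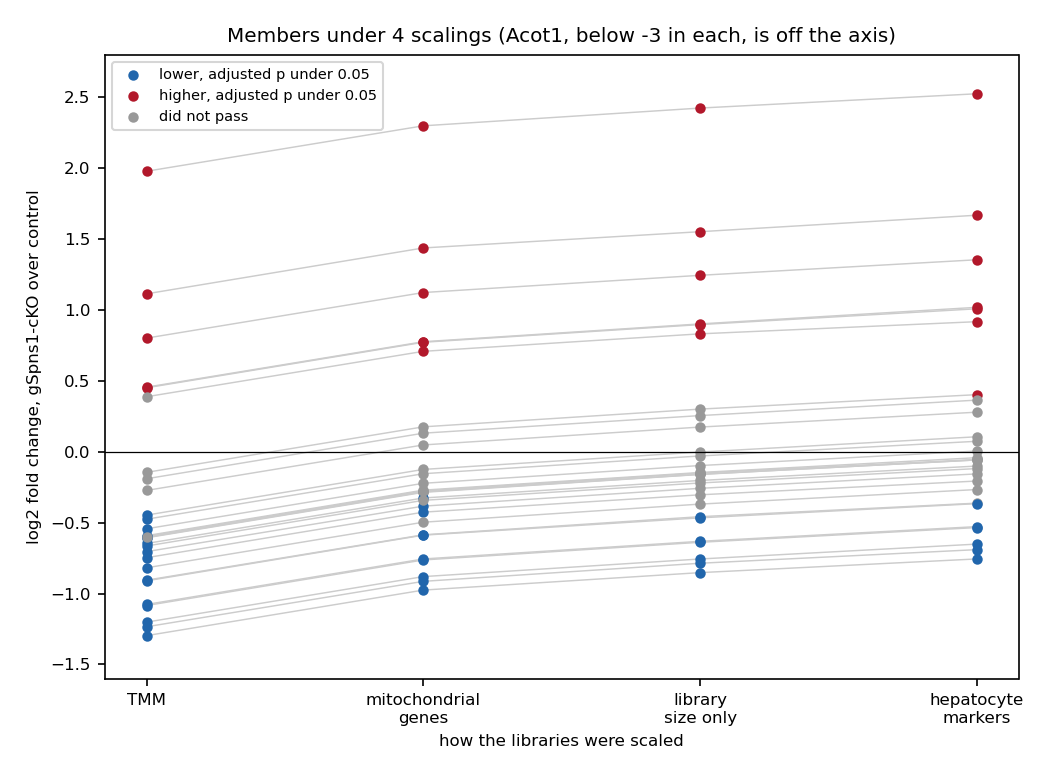
Log2 fold change of the tested genes (y axis) under 4 ways of scaling the libraries (x axis), with 1 line per gene and colours for the edgeR call at an adjusted p of 0.05. Lower calls number 19 with TMM, 11 with mitochondrial genes held level, 8 with library size alone and 7 with hepatocyte markers held level, while the lines stay nearly parallel. Over all genes tested, lower calls come at 20.5%, 8.44%, 6.28% and 4.89% in that order.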

How the data were processed

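RNA was measured by poly-T selected RNA-Seq in 6 mouse livers, and groups and replicate numbers were taken from the sample labels, which assigned all 6. The members of the list and the lists compared with it were chosen with earlier results of these data known. The authors deposited 1 table of whole-number counts per gene, not normalized, with 1 column per mouse. According to the submitters' processing notes, reads were handled with fastp, HISAT2 2.0.5 and featureCounts 1.5.0-p3 on mm10; whether strand was used in counting is not given in the sources used here. The authors also deposited FPKM values, counts divided by gene length and a library total, and 5 columns of their own comparison, namely a signal for each group (the mean of counts divided by size factors), a log2 fold change, a p-value and an adjusted p-value. None of these was used here. Of its genes, 98.3% of those found in GENCODE M21 (GRCm38) had the same coordinates there, including 27 of the 30 members.

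The counts were tested with edgeR 4.0.16 under R 4.3.3. The filterByExpr function kept 15449 genes with enough counts, libraries were scaled by TMM, and groups were compared by edgeR's robust quasi-likelihood test, without covariates, with Benjamini-Hochberg adjustment over all genes and a threshold of 0.05. The study does not state its RNA-Seq test. The SE was derived from the log2 fold change and the F statistic of that test, and SDs are over 3 mice. Count ratios within a library were compared by two-sided exact permutation tests, which cannot go below p = 0.1 here. The script was tested on simulated counts with known changes. Replicates of a group differed by more than sampling noise, with a chi-square per gene of 41.1 to 122. A floor of 3 counts corresponded to 0.0763 to 0.119 CPM, which covers counting error only, as the reads carry no molecular identifiers.

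Named genes are the 30 members, *Spns1* and, from each longer list, up to 4 genes per direction with the largest log2 fold change among those that passed, did not overlap and reached a mean of 1 CPM in a group, plus *Ppara*, *Ppargc1a*, *Fgf21*, *Vdac1* and *Opa1*. Some genes that the rule selects, and 1 of the 9 ratios, are not reported here. The alternatives were DESeq2 1.42.0, library size only, upper-quartile factors, filters of at least 1 count in any or 10 counts in every library, a threshold of 0.01, a replicate block, *Acot1* and *Acot2* summed, the share without the 10 most abundant genes, and leaving out each mouse. Scaling by 14 hepatocyte markers and by 24 mitochondrial genes was chosen after seeing the data.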

Additional observations from a re-analysis of the deposited data

How the results depend on the processing

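The number of lower genes among the 29 tested rested mainly on the scaling. The lower calls went from 19 to 8 with library size only, to 11 with mitochondrial genes held level and to 7 with hepatocyte markers held level, and the median from −0.60 to −0.16, −0.28 and −0.058, and to −0.47 with upper-quartile factors. Over all genes tested, the share called lower fell too, from 20.5% to 6.28%, 8.44% and 4.89% in the same order. With library size only *Acadl* (0.17), *Echs1* (0.30), *Etfa* (0.25), *Sucla2* (0.017), *Vdac1* (0.19) and *Opa1* (0.18) turned above 0. With hepatocyte markers held level so did *Acadl* (0.28), *Hadh* (0.073), *Hadhb* (0.0046), *Echs1* (0.40, there passing as higher), *Etfa* (0.36), *Acat1* (0.11), *Suclg1* (0.013), *Suclg2* (0.029), *Fh1* (0.066), *Sucla2* (0.13), *Lonp1* (0.022), *Tufm* (0.025), *Ppara* (0.037), *Vdac1* (0.29) and *Opa1* (0.29), and with mitochondrial genes held level *Acadl* (0.048), *Echs1* (0.18), *Etfa* (0.13), *Vdac1* (0.064) and *Opa1* (0.059). By construction these scalings shift all genes together, the last of them using a list that holds *Vdac1* and *Opa1* themselves. At a threshold of 0.01, 3890 genes in place of 6452 were called, with 3 of the 29 higher and 17 lower. Leaving out 1 mouse at a time gave 4490 to 6429 called genes, 3 to 5 higher and 17 to 20 lower members, medians of −0.66 to −0.55 and a difference in the share of counts of −0.099 to −0.059 percentage points (−0.076 with all mice). Higher calls fell to 3 without control replicate 2 and without g*Spns1*-cKO replicate 2 or 3, where *Acad10* and *Acot13* did not pass. The difference in log2 ratio of *Slc25a20* to *Cpt2* turned from 0.072 to −0.031 without g*Spns1*-cKO replicate 2, and that of *Acads* to *Acadm* from −0.042 to 0.10 without control replicate 2 (range −0.12 to 0.10). With a replicate block 6100 genes were called, 5 members higher and 18 lower, *Acat1* not passing (adjusted p = 0.0777, edgeR's quasi-likelihood test). The same numbers did not mark paired mice, since the correlations of same-numbered deviations were 0.037, 0.033 and −0.028 and not every sample correlated best with its own number. DESeq2 called the same numbers of members, 5 higher and 19 lower, and a filter of at least 1 count in any library 6 and 20, with *Acot2* and *Ucp2* added. A filter of at least 10 counts in every library gave 5 and 18. Over the single genes and ratios, 1034 values under an alternative kept direction and call, 111 kept direction only, 7 passed newly and 28 changed sign. With 3 mice a group, changes of like size fell on either side of the threshold, as *Hadhb* (−0.54) passed and *Acot2* (−0.60) did not, and 3 to 12 counts per library left *Cpt1b* untested.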
